A study of Mus musculus with 8 samples.

Results

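The mRNAs *Tgfb1*, *Gdf5*, *Tgfbr1* and *Smad4* of the transforming growth factor-beta (TGF-beta) and bone morphogenetic protein (BMP) pathways were followed across 8 inbred mouse strains. They were chosen by name from the 67 target mRNAs that were assayed, by a rule that sets no threshold on their values but was made with earlier results of these data known. The panels hold 4 other mRNAs of these pathways, *Bmp6*, *Chrdl1*, *Smad1* and *Smad2*, which are described last. *Tgfb1* encodes a secreted TGF-beta ligand and *Gdf5* a BMP-class ligand of developing joints. *Tgfbr1* encodes the type I receptor kinase that TGF-beta ligands use, and *Smad4* the common partner that receptor-activated Smad proteins need in both pathways.

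Ligands of this family bind pairs of type I and type II receptor kinases at the cell surface, and the type I receptor then phosphorylates Smad proteins. Phosphorylated Smads join Smad4, enter the nucleus and act on transcription. In the joint, TGF-beta signaling is known for its part in keeping articular cartilage and in fibrosis and bone remodeling, and *Gdf5* is known as a marker of the cells that form joints.

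The material was formalin-fixed, paraffin-embedded knee joint of mice that had received a full-thickness injury of the articular cartilage at 8 weeks of age and were studied 16 weeks later. All groups carried this injury, and no uninjured knees were analysed here. The healer strains were LG/J, MRL/MpJ and LGXSM-6, the intermediate healers LGXSM-5 and LGXSM-35, and the non-healers SM/J, C57BL6/J and LGXSM-33. Each strain was 1 sample, from 3 to 4 mice, and the 4 LGXSM lines are recombinant inbred lines from a cross of LG/J with SM/J, so that 6 of the 8 strains belong to this cross. MRL/MpJ, per the paper, descends in part from LG/J and shares much of its genome, so the healers LG/J and MRL/MpJ are also relatives. Per the study's methods, tissue of the tibiofemoral joint was collected from 25 sections of 5 µm, with articular cartilage, subchondral bone, meniscus, synovium, capsule and growth plate together. In such material fewer cells of a type and less RNA per cell cannot be told apart.

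The QuantiGene Plex assay captures each mRNA from the homogenate on coded beads and reads it through branched DNA. *Tgfb1*, *Gdf5* and *Tgfbr1* were in the first panel, with 8 to 12 numbered signals per strain, and *Smad4* was in the second, with 9 to 12. These signals are called assay replicates. The methods name biological and technical replicates, but the files do not tie an assay replicate to a mouse, so P values over assay replicates measure the spread between these measurements, which is in part technical. With 3 to 4 mice per strain, the 8 to 12 assay replicates outnumber the mice, and these P values are too small as tests over mice. The cartilage markers had median signals of 3358 for *Col2a1*, 2054 for *Comp*, 272 for *Acan*, 38.5 for *Sox9* and 31 for *Mia1*, and the bone markers 24459 for *Col1a1*, 1531 for *Bglap1* and 326 for *Runx2*. Those of the fat markers were 31.5 for *Adipoq*, 11 for *Lep* and 8 for *Retn*, and none of these was at 0 in any assay replicate.

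Signals before normalization varied severalfold between strains, and they did so together with the reference genes. *Tgfb1* signals had a lowest, median and highest value of 313, 374.5 and 633 in LG/J. They were 525, 825 and 1343 in MRL/MpJ, and 838, 1373 and 3281 in LGXSM-6. All LGXSM-6 values were thus above all LG/J values. In the intermediate healers the *Tgfb1* values were 297, 670 and 921 in LGXSM-5 and 365, 883 and 1134 in LGXSM-35. Among the non-healers they were 81, 336.5 and 466 in SM/J. C57BL6/J gave 331, 409 and 744, and LGXSM-33 gave 271, 455.3 and 1733. Each non-healer overlapped with LG/J, with SM/J reaching further down and LGXSM-33 further up. In SM/J, Signals 3, 4 and 5 were 109, 89 and 81 for *Tgfb1*, and these assay replicates were low for *Tgfbr1* as well.

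*Gdf5* signals were close to the bottom of the assay, where a step of 0.5 is a large share of the value. The lowest, median and highest were 5, 5.5 and 10 in LG/J, 6, 10 and 12 in MRL/MpJ and 6, 9.75 and 15 in LGXSM-6. They were 7, 10 and 13 in LGXSM-5 and 6, 8 and 14 in LGXSM-35. SM/J gave 5, 6.25 and 12.5, and C57BL6/J gave 3, 6 and 8. These 7 strains overlapped. LGXSM-33 gave 10.5, 14 and 68.5, and its high end came from 3 assay replicates, Signals 7, 8 and 9, at 43.5, 61 and 68.5. Its other 9 lay between 10.5 and 17.

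*Tgfbr1* signals had a lowest, median and highest value of 112, 143.3 and 236.5 in LG/J, of 217.5, 274 and 310 in MRL/MpJ and of 235, 359.8 and 665 in LGXSM-6. They were 107, 213 and 298 in LGXSM-5 and 130.5, 310.5 and 352 in LGXSM-35. The values in SM/J were 41, 149.3 and 176, those in C57BL6/J 109, 127 and 225, and those in LGXSM-33 132, 209.8 and 431.5. By median LGXSM-6 stood highest and C57BL6/J, LG/J and SM/J lowest, with overlap between neighboring strains.

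*Smad4* signals were 44, 68 and 92 in LG/J, 52, 93.5 and 145 in MRL/MpJ and 84.5, 121.5 and 257 in LGXSM-6. They were 42.5, 91 and 101 in LGXSM-5 and 51, 101 and 131 in LGXSM-35. SM/J gave 12, 56.5 and 71, C57BL6/J 40, 42 and 79, and LGXSM-33 47, 75.5 and 167. The order of the strains was like that of *Tgfbr1*, again with LGXSM-6 at the top.

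**Figure D1:**
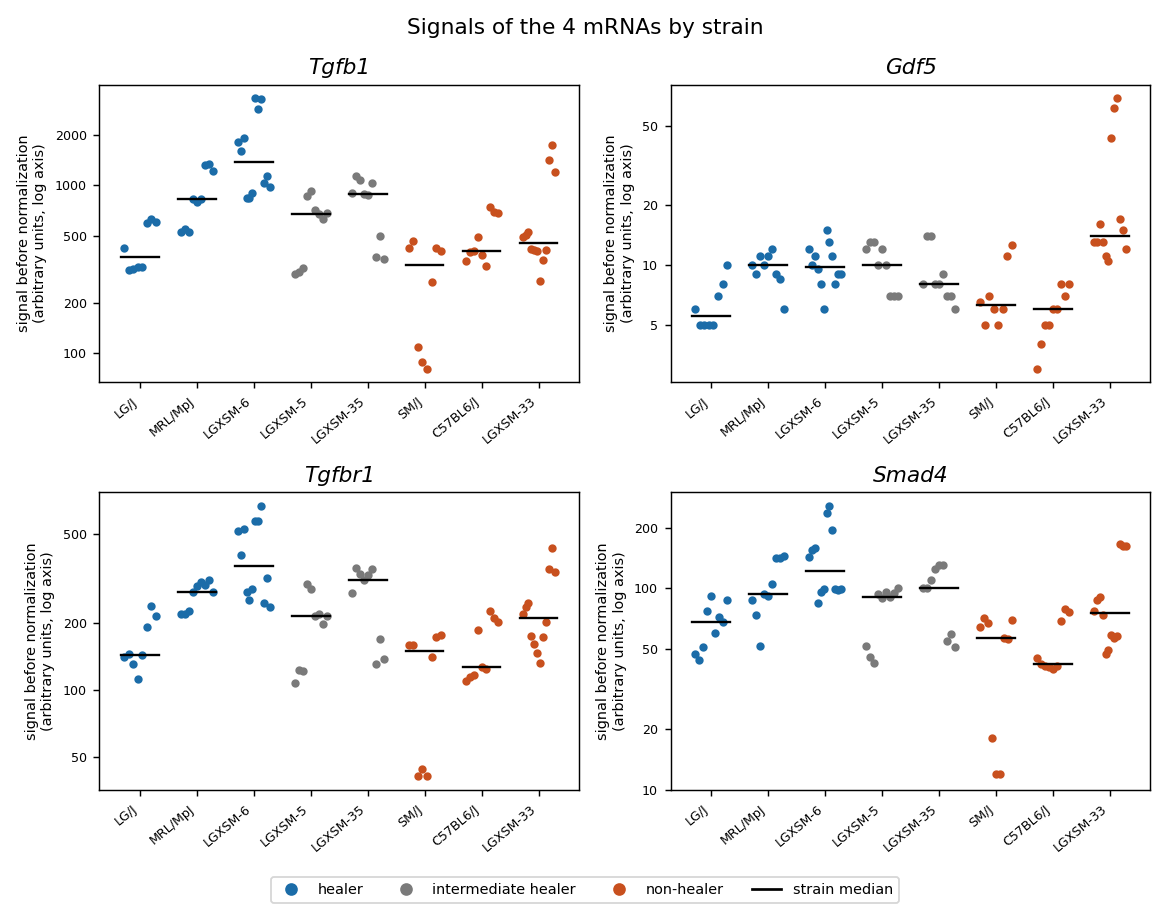
Signals of *Tgfb1*, *Gdf5*, *Tgfbr1* and *Smad4* before normalization, in arbitrary units on a log axis, for the 8 strains in order of healing class. Each point is 1 assay replicate and each line the strain median; the 3 high *Gdf5* points of LGXSM-33 lie at 43.5 to 68.5, above all other *Gdf5* points.

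The reference genes moved with these signals. The geometric mean of *Actb* was 14783 in LGXSM-6 and 1621 in SM/J, and that of *Hprt1* in the first panel was 323 and 42.7. In a regression on the reference genes of the panel, these accounted for 94.6% of the variance of the log10 signal of *Tgfb1*, 93.2% for *Tgfbr1* and 96.6% for *Smad4*, but for 35.9% for *Gdf5*. The normalized values are what this regression leaves, and they are given below as log2 residuals, where 0 is the level predicted from the reference genes. The reference genes themselves did not keep one ratio: *Gapdh* over *Actb* was 4.13 in SM/J and 3.53 in LGXSM-33 and between 1.10 and 2.12 in the other 6 strains.

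After normalization the strain means of *Tgfb1* spanned 0.44 on the log2 scale, a 1.35-fold difference. LGXSM-6 was highest at 0.20 ± 0.21 (SD, n = 12 assay replicates), followed by SM/J at 0.18 ± 0.18 (SD, n = 8) and LGXSM-33 at 0.15 ± 0.11 (SD, n = 12). C57BL6/J, at -0.02 ± 0.10 (SD, n = 9), and MRL/MpJ, at -0.04 ± 0.29 (SD, n = 9), were in the middle. LGXSM-35 had -0.11 ± 0.13 (SD, n = 9), LG/J -0.20 ± 0.21 (SD, n = 8) and LGXSM-5 -0.23 ± 0.13 (SD, n = 9). The top of the order thus held a healer and 2 non-healers, and the bottom held both intermediate healers and the healer LG/J.

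For *Gdf5* the strain means spanned 1.22 on the log2 scale. LGXSM-33 was highest at 0.67 ± 0.91 (SD, n = 12) and SM/J, another non-healer, lowest at -0.55 ± 0.54 (SD, n = 8). Between them lay LGXSM-6 at 0.16 ± 0.26 (SD, n = 12), MRL/MpJ at 0.07 ± 0.14 (SD, n = 9) and C57BL6/J at 0.05 ± 0.21 (SD, n = 9). LGXSM-5 had -0.08 ± 0.41 (SD, n = 9), LGXSM-35 -0.23 ± 0.48 (SD, n = 9) and LG/J -0.40 ± 0.37 (SD, n = 8). Without Signals 7 to 9, the LGXSM-33 mean was 0.18 (n = 9), still first in the order by a small margin over LGXSM-6.

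*Tgfbr1* strain means spanned 0.39. LGXSM-33, at 0.14 ± 0.17 (SD, n = 12), and LGXSM-6, at 0.13 ± 0.10 (SD, n = 12), were highest. MRL/MpJ and SM/J had the same mean of 0.03, with SDs of 0.28 (n = 9) and 0.10 (n = 8), and C57BL6/J had 0.01 ± 0.15 (SD, n = 9). LG/J was at -0.09 ± 0.19 (SD, n = 8), LGXSM-35 at -0.13 ± 0.24 (SD, n = 9) and LGXSM-5 at -0.25 ± 0.16 (SD, n = 9). The receptor mRNA thus had the same strains at both ends as *Tgfb1*, apart from SM/J.

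*Smad4* had the narrowest spread of the 4, at 0.26, with LGXSM-6 at 0.10 ± 0.13 (SD, n = 12) and LGXSM-5 at -0.16 ± 0.08 (SD, n = 9) at the ends. LGXSM-33 had 0.05 ± 0.14 (SD, n = 12), MRL/MpJ 0.01 ± 0.18 (SD, n = 9) and LG/J -0.01 ± 0.15 (SD, n = 9). SM/J, at -0.04 ± 0.10 (SD, n = 9), LGXSM-35, at -0.07 ± 0.14 (SD, n = 9), and C57BL6/J, at -0.08 ± 0.09 (SD, n = 9), followed.

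**Figure D2:**
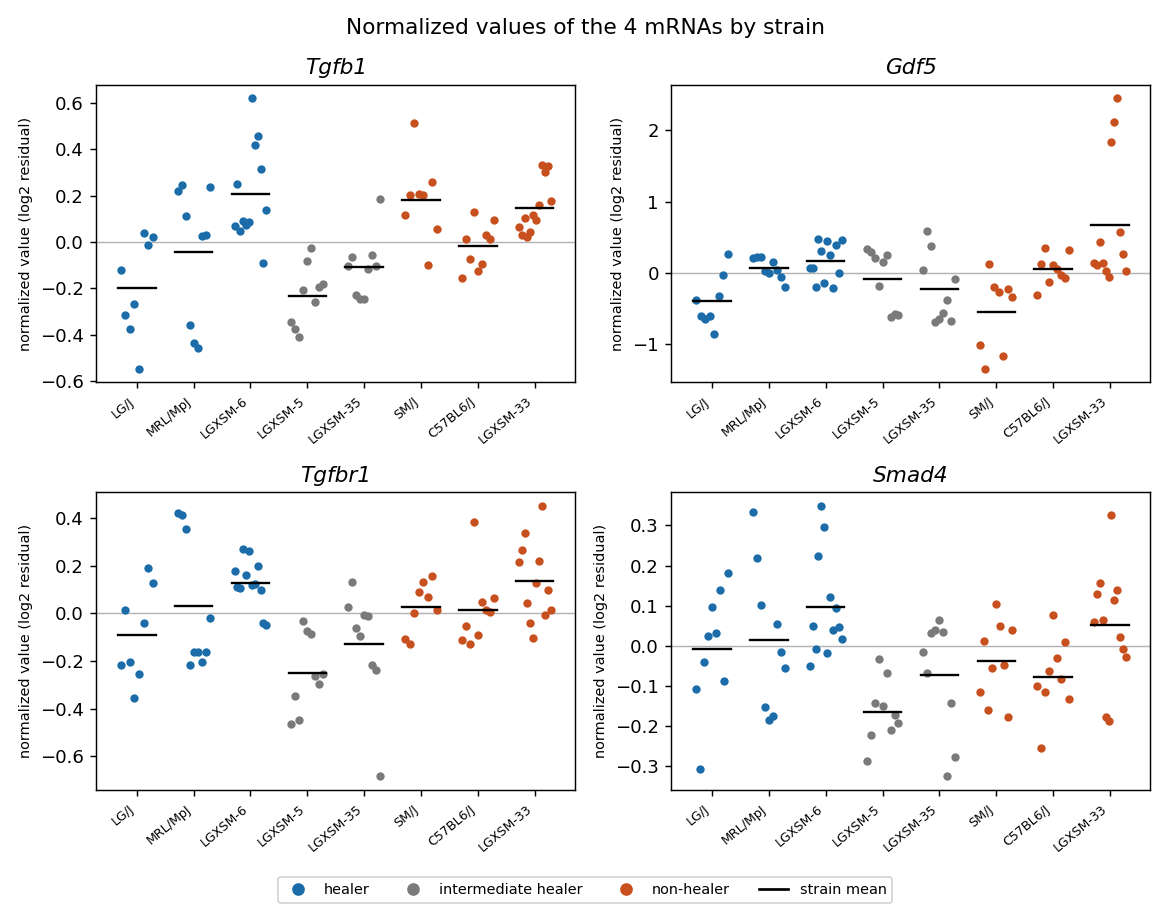
Normalized values of the same 4 mRNAs as log2 residuals after regression on the reference genes, 1 point per assay replicate and 1 line per strain mean. LGXSM-5 has the lowest mean for *Tgfb1*, *Tgfbr1* and *Smad4*, and SM/J the lowest for *Gdf5*; points of neighboring strains overlap throughout.

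All 4 mRNAs differed among the strains over assay replicates by limma's moderated F-test with Benjamini-Hochberg adjustment over the 67 targets. This is no mark of these 4, since 82.1% of all targets passed. The adjusted P was 1.38e-06 for *Tgfb1*, 3.62e-05 for *Gdf5*, 0.000264 for *Tgfbr1* and 0.00472 for *Smad4*. None of the 4 passed when runs of 3 consecutive signal numbers were first averaged, a layout that the files do not state and that was tried after the data had been seen: with 6 strains in the first panel and 8 in the second, the limma adjusted P was then 0.247 for *Tgfb1*, 0.452 for *Gdf5*, 0.363 for *Tgfbr1* and 0.694 for *Smad4*, and 14.9% of all targets passed. Repeat measures of single mice are mentioned in the paper. With 3 repeats, 3 to 4 mice would give 9 or 12 signals, but the files do not mark which signals share a mouse. Assay replicates with neighboring numbers deviated together, with correlations of their deviations from the strain mean of 0.28 to 0.41 for the 4 mRNAs, against -0.35 to -0.26 for numbers 3 or more apart. Deviations from a strain mean cancel out within the strain, so part of the negative values follows from the centering.

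As residuals, the widths of the strain differences were modest among the targets. The highest strain mean minus the lowest had a median of 0.41 on the log2 scale over the 4 mRNAs and of 0.54 over all 67. *Gdf5* ranked 13 of 67 by this width, *Tgfb1* 45, *Tgfbr1* 52 and *Smad4* 61. The *Gdf5* width fell from 1.22 to 0.74 without Signals 7 to 9 of LGXSM-33. As a ratio to the reference genes the widths were 0.56 for *Tgfb1*, 1.98 for *Gdf5*, 0.67 for *Tgfbr1* and 0.26 for *Smad4*. Without normalization they were 2.72, 1.78, 1.96 and 1.80 in the same order of mRNAs. Broad-sense heritability, the between-strain share of the variance over assay replicates, was 44.5% ± 12.6 (jackknife SE over 8 strains) for *Tgfb1*, 34.0% ± 7.20 for *Gdf5*, 31.2% ± 17.5 for *Tgfbr1* and 23.4% ± 15.0 for *Smad4*. The median of the 4 was 32.6% and that of all 67 was 29.6%. Without LGXSM-5 the heritability of *Tgfbr1* was 16.9% and that of *Smad4* 11.8%, and as a ratio to the reference genes that of *Smad4* was 7.56%. Without normalization the estimates were 51.1% for *Gdf5*, 50.3% for *Tgfbr1* and 42.1% for *Smad4*. The paper, which describes averages per individual, gives a significant heritability for *Tgfb1* alone among these mRNAs. Its estimates for *Gdf5*, *Tgfbr1* and *Smad4* were lower than the residual-based ones above.

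**Figure D3:**
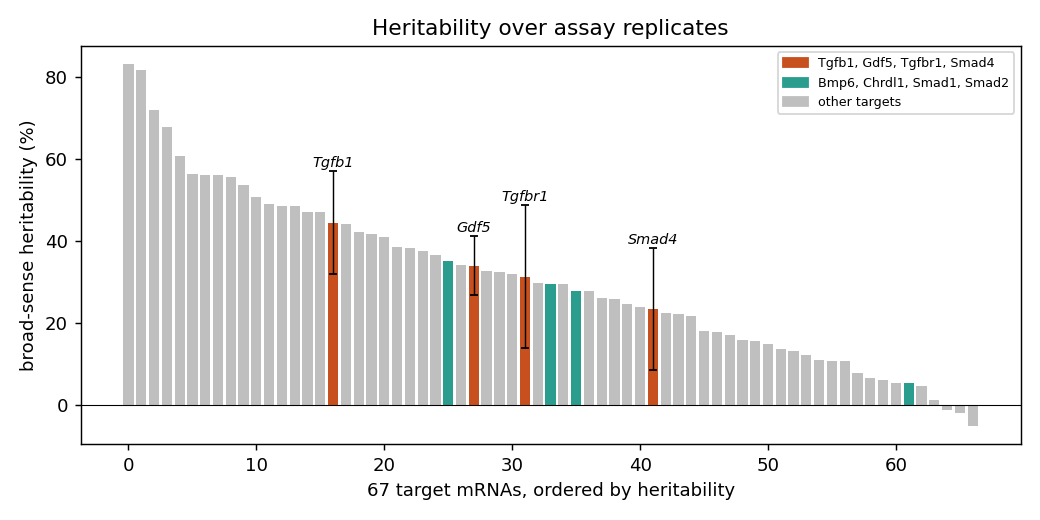
Broad-sense heritability in percent of the 67 target mRNAs in descending order, with the 4 mRNAs in orange, their jackknife standard errors over strains as bars, and the other 4 pathway mRNAs in green. The 4 lie at ranks 17 (*Tgfb1*), 28 (*Gdf5*), 32 (*Tgfbr1*) and 42 (*Smad4*), within the broad middle of the targets.

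Pairs of strains were compared with limma contrasts, adjusted over all 1876 combinations of mRNA and pair, of which 29.5% passed. For *Tgfb1*, 11 of the 28 pairs passed, and LGXSM-6 was a partner in 5 of them. LGXSM-6 was above LGXSM-5 by 0.44 ± 0.08 (log2, SE, limma adjusted P = 2.09e-05) and above LG/J by 0.40 ± 0.09 (limma adjusted P = 0.000145). The assay replicates of LGXSM-5 and LGXSM-33 did not overlap for *Tgfb1*, the only such pair among the 4 mRNAs, where 7.25% of all combinations did not overlap. With each target set as a ratio to the reference genes, all 11 pairs kept their sign and 5 passed, where 35% of all combinations passed.

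For *Gdf5*, 11 pairs passed too, 7 of them with LGXSM-33 and 4 with SM/J, each strain's difference from the other counted in both. LGXSM-33 was above SM/J by 1.22 ± 0.22 (log2, SE, limma adjusted P = 1.13e-05), a 2.33-fold difference. It was also above the healer LGXSM-6, by 0.51 ± 0.20 (limma adjusted P = 0.0439). Without Signals 7 to 9 the difference from LGXSM-6 was 0.02 (limma adjusted P = 0.937), and 4 of the 11 calls were lost. As a ratio to the reference genes, 6 of the 11 pairs passed with the same sign and 3 with the opposite sign. SM/J moved from the lowest to the highest strain, LGXSM-33 was second, and LGXSM-6 was the lowest.

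For *Tgfbr1*, 9 of 28 pairs passed, and 5 of these had LGXSM-5 as the lower strain. LGXSM-33 was above LGXSM-5 by 0.39 ± 0.08 (log2, SE, limma adjusted P = 0.000173), and LGXSM-6 was above it by 0.38 ± 0.08 (limma adjusted P = 0.000225). Without Signals 7 to 9 of LGXSM-33, 2 of the 9 were lost, LGXSM-33 over LG/J (limma adjusted P = 0.123) and over LGXSM-35 (limma adjusted P = 0.0509). As a ratio to the reference genes 8 of the 9 pairs kept their sign and 3 passed, and LGXSM-6 was above LGXSM-5 by 0.15 (limma adjusted P = 0.325). For *Smad4*, 5 pairs passed, all with LGXSM-5 or LGXSM-6, the largest difference being 0.26 ± 0.06 between these lines (limma adjusted P = 0.000709). Scaled as that ratio, none of these 5 passed, and the F-test of *Smad4* was also lost (limma adjusted P = 0.147). Averaging in runs of 3 numbers left out LG/J and SM/J in the first panel, so that 22 of the 36 pairs that had passed for the 4 mRNAs could be tested and 14 could not. None of the 22 passed, beside 4.42% of the 1447 combinations run. Of the 28 neighbors in the strain orders of the 4 mRNAs, 27 could not be ranked beyond their spread. The other was LGXSM-33 over LGXSM-6 for *Gdf5*, which as residual rested on Signals 7 to 9 and did not pass in runs of 3 (limma adjusted P = 0.544). With all signals it was 1.96 as a ratio (limma adjusted P = 5.2e-06) and 0.95 without normalization (limma adjusted P = 0.000271).

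As residuals, the parents LG/J and SM/J differed in 1 of the 4 mRNAs, and 28.4% of all 67 targets passed for this pair. *Tgfb1* was lower in the healer LG/J than in the non-healer SM/J by 0.38 ± 0.09 (log2, SE, limma adjusted P = 0.00100). As a ratio to the reference genes this was 0.28 (limma adjusted P = 0.0615), and without normalization the sign turned, with LG/J above SM/J by 0.89. The *Gdf5* difference, LG/J minus SM/J, was 0.16 ± 0.24 (limma adjusted P = 0.671), that of *Tgfbr1* -0.12 ± 0.09 (limma adjusted P = 0.349) and that of *Smad4* 0.03 ± 0.07 (limma adjusted P = 0.764). The ratio to the reference genes gave -1.35 for *Gdf5* (limma adjusted P = 0.00907) and -0.47 for *Tgfbr1* (limma adjusted P = 0.00448), so both then passed with SM/J above LG/J, as did 26.9% of all targets. For both mRNAs the SM/J ratios were highest in Signals 3, 4 and 5, the wells with low *Tgfb1* signals. Without normalization LG/J was above SM/J for *Tgfb1* (limma adjusted P = 0.0310), for *Tgfbr1*, by 0.71 (limma adjusted P = 0.0329), and for *Smad4*, by 0.75 (limma adjusted P = 0.0288), as it was for 50.7% of all targets. The direction between the parents thus depended on the scaling.

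As residuals, the healer MRL/MpJ and the non-healer C57BL6/J did not pass for any of the 4, where 17.9% of all targets did. The differences of C57BL6/J minus MRL/MpJ were 0.02 ± 0.09 for *Tgfb1*, -0.02 ± 0.23 for *Gdf5*, -0.01 ± 0.09 for *Tgfbr1* and -0.09 ± 0.07 for *Smad4* (log2, SE). Without normalization 70.1% of all targets passed with C57BL6/J lower, and *Actb*, *Gapdh* and *Hprt1* were lower as well (*Actb* at 5791 against 9341 in MRL/MpJ). The 4 mRNAs were among these targets, at -0.79 for *Tgfb1* (limma adjusted P = 0.0428), -0.77 for *Gdf5* (limma adjusted P = 0.00985), -0.82 for *Tgfbr1* (limma adjusted P = 0.00864) and -0.97 for *Smad4* (limma adjusted P = 0.00479). Healer LGXSM-6 minus non-healer LGXSM-33 gave 0.06 ± 0.08 for *Tgfb1*, -0.01 ± 0.08 for *Tgfbr1* and 0.05 ± 0.06 for *Smad4*, with limma adjusted P values of 0.610, 0.959 and 0.591, where 22.4% of all targets passed for this pair. As a ratio to the reference genes the *Tgfb1* difference between these lines was 0.39 (limma adjusted P = 0.00137), where 17.9% of all targets passed with LGXSM-6 higher, and without normalization LGXSM-6 was higher by 1.40 for *Tgfb1*, 0.79 for *Tgfbr1* and 0.71 for *Smad4*, all past the threshold, as were 52.2% of all targets in this direction. LGXSM-6 and LGXSM-33 come from the same cross and carry opposite healing labels, and both were among the 3 highest strains for all 4 mRNAs as residuals.

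As residuals, the recombinant lines lay outside both parents in 14 of the 16 combinations of line and mRNA, where 69.4% of all 268 combinations did. LGXSM-6 was above both parents for each of the 4 mRNAs, and LGXSM-33 for *Gdf5*, *Tgfbr1* and *Smad4*. In 2 of the 16, both for *Gdf5*, the line passed against both parents, where 14.2% of all combinations did: LGXSM-6 was above LG/J by 0.56 (limma adjusted P = 0.0480) and above SM/J by 0.71 (limma adjusted P = 0.0102), and LGXSM-33 was above LG/J by 1.07 (limma adjusted P = 0.000112) as well as above SM/J. Without Signals 7 to 9, LGXSM-33 was above LG/J by 0.58 (limma adjusted P = 0.00535) and above SM/J by 0.74 (limma adjusted P = 0.000409). LGXSM-5 was below both parents for *Tgfb1*, *Tgfbr1* and *Smad4*, and passed against SM/J for *Tgfb1*, with a difference of -0.41 (limma adjusted P = 0.000248), and for *Tgfbr1*, with -0.28 (limma adjusted P = 0.0146), but not against LG/J for any of them. These positions depended on the scaling: as a ratio to the reference genes LGXSM-6 was above both parents for *Tgfb1* but below both for *Gdf5*, *Tgfbr1* and *Smad4*. LGXSM-33 was then between the parents for *Gdf5* and *Tgfbr1* and below both for *Smad4*, and its *Gdf5* difference from SM/J was lost (SM/J minus LGXSM-33 was 0.02, limma adjusted P = 0.971). Finally, without normalization LGXSM-5, LGXSM-6 and LGXSM-33 were above both for all 4.

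**Figure D4:**
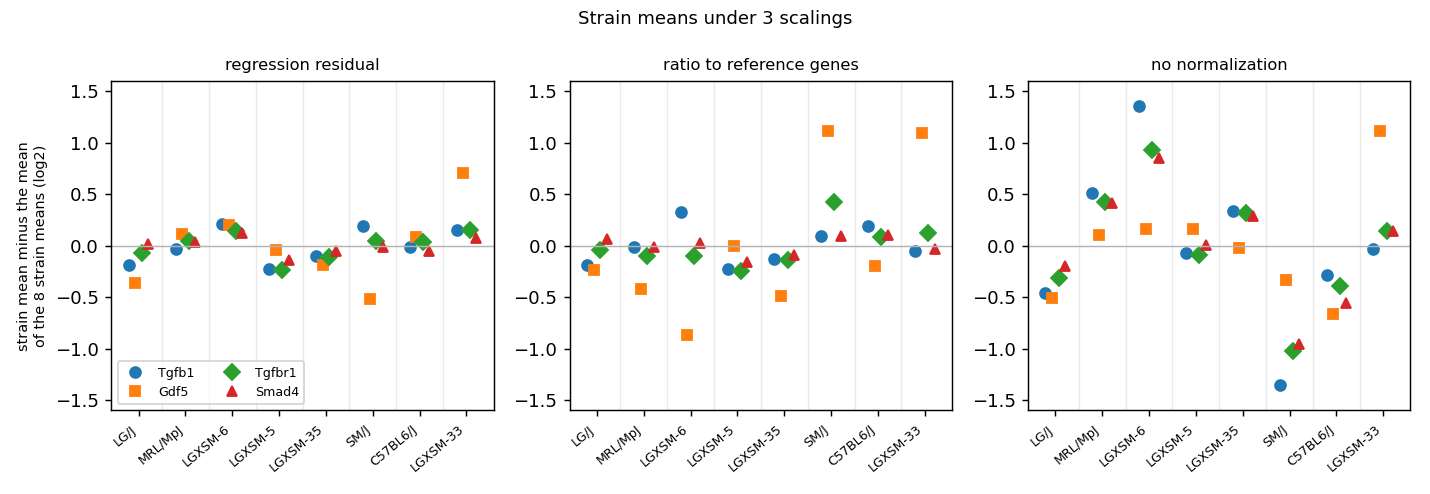
Strain means of the 4 mRNAs in log2 units, each centered on the mean of its 8 strain means, as regression residual, as ratio to the reference genes and without normalization. SM/J has the lowest *Gdf5* mean as residual and the highest as ratio, and LGXSM-6 has the highest *Tgfb1* mean in all 3. The SM/J mean of the *Gdf5* ratio was raised by its Signals 3, 4 and 5.

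The healing classes were compared over strain means, 3 healer against 3 non-healer strains. None of the 4 mRNAs passed, and neither did any of the 67 targets: 0% passed upward and 0% downward by limma with Benjamini-Hochberg adjustment, 4 targets had an unadjusted P under 0.05, none of them among the 4, and the exact permutation test, whose smallest possible P here is 0.1, called 0. *Tgfb1* was -0.20, -0.04 and 0.20 in the healers LG/J, MRL/MpJ and LGXSM-6 and 0.18, -0.02 and 0.15 in the non-healers SM/J, C57BL6/J and LGXSM-33. The healers minus non-healers difference was -0.12 (95% interval -0.41 to 0.18, limma adjusted P = 0.894). *Gdf5* differed by -0.11 (-0.78 to 0.56, limma adjusted P = 0.919), *Tgfbr1* by -0.04 (-0.28 to 0.20, limma adjusted P = 0.919) and *Smad4* by 0.06 (-0.16 to 0.28, limma adjusted P = 0.894). The classes overlapped for all 4, where 13.4% of all targets did not overlap.

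Direction between classes rested on the scaling. Without normalization the median of all 67 targets was 0.68 higher in healers, and *Tgfb1* was then 1.03, *Tgfbr1* 0.77 and *Smad4* 0.81 higher, with *Gdf5* at -0.12. As a ratio to the reference genes the median of all targets was -0.26, and *Gdf5* was at -1.18, *Tgfbr1* at -0.29, *Tgfb1* at -0.03 and *Smad4* at -0.03. Relative to these medians *Tgfb1* was -0.15 as residual, 0.23 as ratio and 0.35 without normalization. *Gdf5* was lower in healers under all 3 scalings, but its sign turned without Signals 7 to 9 of LGXSM-33, at 0.05, without LG/J, at 0.06, and without LGXSM-33, at 0.20.

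As residuals the intermediate healers lay below both other classes. The mean over LGXSM-5 and LGXSM-35 was -0.17 for *Tgfb1*, -0.15 for *Gdf5*, -0.19 for *Tgfbr1* and -0.12 for *Smad4* (log2 residuals). The healer means were -0.01, -0.06, 0.02 and 0.03 in the same order of mRNAs, and the non-healer means were 0.10, 0.05, 0.06 and -0.02. As a ratio to the reference genes the intermediate lines were above the healers for *Gdf5*, by 0.26, and without normalization they were above the non-healers for all 4, by 0.03 to 0.69. This was seen after the values were known, over 2 lines, and was not tested. Tissue markers moved with it: the cartilage list was lowest in LGXSM-5 and LGXSM-35, at -0.58 and -0.37 (mean log2 residual), and so was the growth plate list, at -0.61 and -0.45. The inflammatory list was highest there, at 0.08 and 0.42, but its members differed. *Ccl3* was at 0.57 in intermediate healers, -0.37 in healers and 0.02 in non-healers. *Il6* was at -0.07, 0.13 and -0.13 in the same order of classes. The part of these markers in the low intermediate means was not tested.

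Across the 8 strain means the 4 mRNAs varied together in part. *Tgfb1* and *Tgfbr1* had Pearson's r = 0.88 (exact permutation P = 0.00392, adjusted over all 2211 pairs of targets 0.325) and Spearman's rho = 0.81 (exact permutation P = 0.0218), and r was 0.93 without SM/J and LGXSM-6. Over ratios to the reference genes, however, this r was 0.36. *Tgfbr1* and *Smad4*, from different panels, had r = 0.86 (exact permutation P = 0.00563, adjusted 0.328) and rho = 0.86 (exact permutation P = 0.0107). Without LGXSM-5 and LGXSM-35 that r was 0.64 (exact permutation P = 0.154). For each pair of mRNAs, the strains left out in this way were those farthest from the median. Leaving them out also narrows the range, so the drop does not tell how far the relation rests on these lines. *Tgfb1* and *Smad4* had r = 0.69 (exact permutation P = 0.0596, adjusted 0.513) and rho = 0.62 (exact permutation P = 0.115), and r stayed at 0.69 without SM/J and LGXSM-6. The lowest r of this pair over the alternatives was 0.41. Over ratios r was 0.70 for *Tgfbr1* with *Smad4* and 0.62 for *Tgfb1* with *Smad4*.

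The correlations of *Gdf5* with the other mRNAs were lower in size, and whether they differ from those above was not tested. Its r was 0.33 with *Tgfb1* (exact permutation P = 0.438, adjusted 0.820; rho = 0.36, exact permutation P = 0.389), and 0.89 without SM/J and LGXSM-6. It ranged from 0.076 to 0.77 when single strains were left out. Over ratios to the reference genes it was -0.17, so its sign rested on the scaling. With *Tgfbr1* it was 0.51 (exact permutation P = 0.193, adjusted 0.686; rho = 0.67, exact permutation P = 0.0831), and 0.63 without SM/J and LGXSM-33, with a range of 0.28 to 0.72 over single strains left out and of 0.17 to 0.75 over all alternatives. With *Smad4* it was 0.43 (exact permutation P = 0.280, adjusted 0.747; rho = 0.55, exact permutation P = 0.171), and 0.33 without the same strains, but -0.11 over strain medians. None of the 6 pairs passed the adjustment, nor did any of the 2211, of which 208 had an unadjusted P under 0.05. The mRNAs of a panel share wells and reference genes, 6 of the strains belong to 1 cross and MRL/MpJ is a relative of LG/J, so the strain means are not independent.

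**Figure D5:**
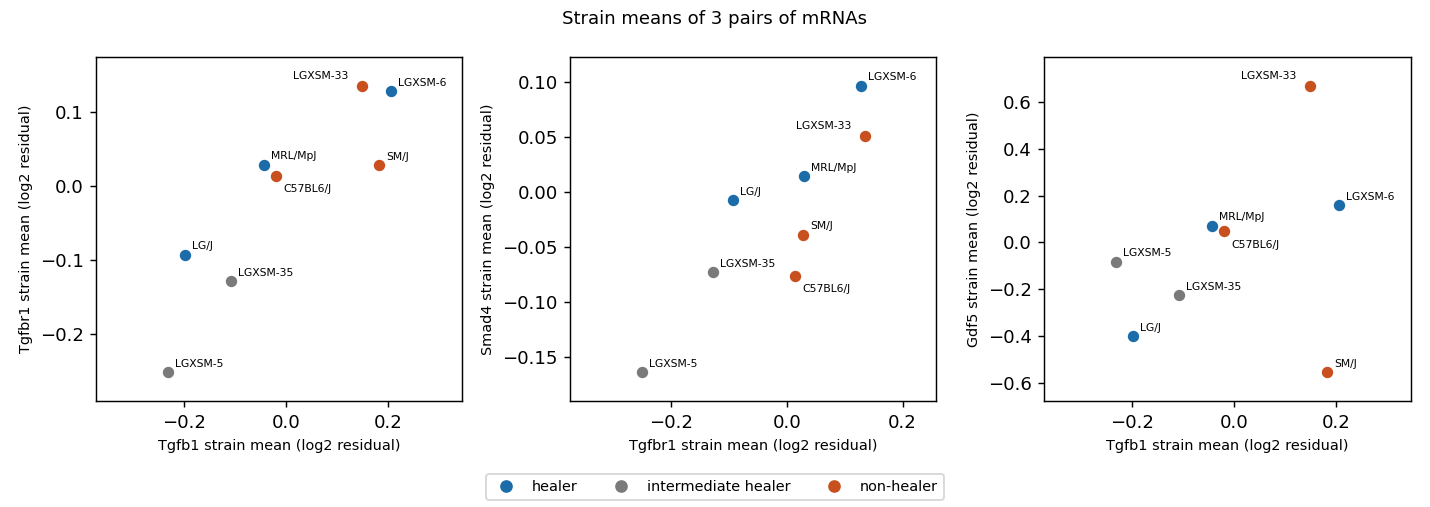
Strain means of *Tgfb1* against *Tgfbr1*, *Tgfbr1* against *Smad4* and *Tgfb1* against *Gdf5*, as log2 residuals, with 1 point per strain colored by healing class. The first 2 pairs rise together (r = 0.88 and 0.86), with the intermediate healer LGXSM-5 at the low end, whereas SM/J departs from the others in the plot with *Gdf5* (r = 0.33).

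The targets whose strain means were most like those of the 4 mRNAs were picked by the highest r over the 8 strains and are given as a description. For *Tgfb1* they were *Tgfbr1* and *Smad2*, which encodes a receptor-activated Smad of the TGF-beta branch (r = 0.87). For *Tgfbr1* they were *Igf1*, an insulin-like growth factor (r = 0.95), and *Smad2* (r = 0.89). For *Gdf5* they were *Fgf18*, a fibroblast growth factor (r = 0.85), and *Bcl3*, a regulator of NF-kappaB (r = 0.80). For *Smad4* they were *Acan*, the main proteoglycan of cartilage (r = 0.93), and *Sox9*, the master transcription factor of cartilage cells (r = 0.90).

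Cartilage markers varied with *Smad4* across the strains. The mean log2 residual of *Col2a1*, *Acan*, *Comp*, *Mia1* and *Sox9* was highest in LGXSM-6, at 0.56, and lowest in LGXSM-5, at -0.58, the same lines as for *Smad4*, and all 5 differed among strains, where 82.1% of all targets did. Over the 8 strains its r was 0.87 with *Smad4*, 0.66 with *Tgfbr1*, 0.49 with *Tgfb1* and 0.22 with *Gdf5*. Over ratios to the reference genes it was 0.78 with *Smad4*, 0.65 with *Tgfbr1*, 0.38 with *Tgfb1* and 0.34 with *Gdf5*. Without normalization it was 0.88, 0.87, 0.86 and 0.37 in the same order of mRNAs, where 44.3% of all 2211 pairs of targets passed. The list holds *Acan* and *Sox9*, which were picked above by their r with *Smad4*. Its r with *Smad4* thus partly repeats that pick. The summed signal of the 5 before normalization ranged from 5425 to 13352 in the healer strains and from 3167 to 7582 in the non-healers, and was 4521 and 4871 in LGXSM-5 and LGXSM-35. The growth plate markers *Col10a1*, *Ihh* and *Mmp13*, with sums of 1151 to 2822 in healers and 342.5 to 954.4 in non-healers, and the bone markers *Bglap1*, *Col1a1* and *Runx2*, with 21597 to 33290 and 15659 to 27359, had r of 0.69 and 0.58 with *Smad4*. Fat markers, with 1 of 3 different among strains beside the same 82.1% and sums of 33.3 to 71.3 in healers and 38.7 to 71.9 in non-healers, had r of -0.20 with *Smad4*. The inflammatory markers *Ccl3* and *Il6*, both different among strains as most targets were, with sums of 68.2 to 151 and 75.3 to 77.3, had r of -0.47 with it. Their sum was 135 in LGXSM-5 and, highest of the 8 strains, 309 in LGXSM-35. With median signals of 72 for *Ccl3* and 9 for *Il6* over all assay replicates, such sums were mostly *Ccl3*. The part of tissue composition in the strain differences was not tested.

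In the wells with the high *Gdf5* signals of LGXSM-33, some cartilage and bone mRNAs were high as well after normalization. Of the 33 targets of the first panel, 7 had normalized values in Signals 7 to 9 that all lay above the other 9 assay replicates of the line, and none lay below. By the size of the difference *Gdf5*, at 1.95 (log2), ranked 2, after *Col10a1*, the collagen of hypertrophic cartilage, at 2.58. *Acan* followed at 1.59, *Sox9* at 1.17 and *Col2a1*, the main collagen of cartilage, at 0.79, and the bone markers *Col1a1* and *Runx2* were at 0.29 and 0.24. The cartilage markers *Comp*, at 0.67, and *Mia1*, at 0.16, overlapped with the other 9, as did *Mmp13*, at 0.23. Before normalization the *Col10a1* signals were 214.5, 297.5 and 285 against 38 to 93 in the other 9. Those of *Acan* were 300, 459 and 476 against 200 to 427.5, and like those of *Sox9*, *Col2a1* and *Col1a1* they overlapped. The *Runx2* signals, at 152, 172 and 175, were not above any of the other 9, which were at 175 to 526.5. These mRNAs were named after their values had been seen, and no test was made.

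Of the other 4 pathway mRNAs of the panels, 3 differed among strains over assay replicates, beside 82.1% of all targets, and none passed between healing classes. *Smad1*, the receptor-activated Smad of the BMP branch, had the widest span of these as residuals, 0.54 (log2, limma adjusted P = 2.02e-05), with LGXSM-6 at 0.29 ± 0.20 (SD, n = 12) and C57BL6/J at -0.25 ± 0.13 (SD, n = 9). The ratio to the reference genes gave spans of 0.64 for *Smad2*, 0.62 for *Bmp6*, 0.50 for *Smad1* and 0.34 for *Chrdl1*, and C57BL6/J minus LGXSM-6 for *Smad1* was then -0.12 (limma adjusted P = 0.570). *Chrdl1*, which encodes a secreted BMP antagonist, spanned 0.51 (limma adjusted P = 0.000199) between the same 2 strains, where C57BL6/J minus LGXSM-6 was -0.12 as a ratio and did not pass (limma adjusted P = 0.598). *Smad2* spanned 0.30 (limma adjusted P = 0.000789), from LGXSM-6 down to LGXSM-5, and LGXSM-5 minus LGXSM-6 was -0.19 as a ratio and did not pass (limma adjusted P = 0.361). *Bmp6*, a BMP ligand, spanned 0.22 and did not pass (limma adjusted P = 0.191), and 0 of its 28 pairs passed as deposited. With recomputed residuals 2 pairs passed, MRL/MpJ and C57BL6/J below LGXSM-33 (limma adjusted P = 0.0461 and 0.0475), and as a ratio 4 did, all with SM/J higher, by 0.62 over LGXSM-6 (limma adjusted P = 0.000839). The *Bmp6* ratios of SM/J (log10) were -0.87, -0.82 and -0.94 in Signals 4, 5 and 6, where its signals were 14, 9 and 7. In its other assay replicates they were -1.39 to -1.25, so the SM/J mean was raised by Signals 4 to 6. By strain mean, LGXSM-6 was thus the highest strain for *Tgfb1*, *Smad4*, *Smad1*, *Chrdl1* and *Smad2*, all as residuals. By strain median of the residuals SM/J was the highest for *Tgfb1* and LGXSM-33 for *Smad4*, with LGXSM-6 still highest for the others. As a ratio to the reference genes LGXSM-6 had the highest mean for *Tgfb1* alone. The healers minus non-healers differences were 0.14 for *Smad1*, 0.05 for *Chrdl1*, 0.03 for *Smad2* and -0.07 for *Bmp6* (log2, limma adjusted P of 0.869 to 0.928).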

How the data were processed

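Signals of the QuantiGene Plex assay were measured in knee joint homogenates of 8 strains, in 2 panels of 33 and 34 targets with 76 and 78 assay replicates. The authors deposited log10 signals, and log10 residuals from a multiple regression on the reference genes (*Gapdh*, *Hprt1* and, in the first panel, *Actb*). The methods include subtraction of a background signal, and whether the deposited signals are before or after this step is not given in the sources used here. The deposited strain averages and fold changes against one strain were not used. The methods name a set number of bead events per bead region, but the beads counted for each value are not given. Single signals therefore carry no interval.

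Residuals were divided by log10 of 2 to give log2 units. Values were fitted with limma 3.58.1 in R 4.3.3 over assay replicates, each panel on its own, with P values adjusted over both panels at a threshold of 0.05, and healing classes over strain means. Variance components, correlations and exact permutations were computed with Python 3.11.15, numpy 2.4.6 and scipy 1.17.1. The steps were tested on simulated data. All value columns matched a strain (0 left out). Alternatives were recomputed residuals, the ratio to reference genes, no normalization, a mean signal of at least 20, leaving out single strains or assay replicates, medians, permutation tests and the 6 strains of the cross. The 4 mRNAs, the lists and the rule for named mRNAs (the pathway mRNAs of the panels, the 2 targets most alike to each, the references and tissue markers) were chosen with earlier results of these data known. All 8 pathway symbols are in the RefSeq annotation of GRCm38.p6, which was used for names alone.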

Additional observations from a re-analysis of the deposited data

Results flagged for a closer look

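Within the strains with 8 or 9 assay replicates, 3 of 24 groups of normalized values of the 4 mRNAs held a value that stood apart from the rest of its strain by Dixon's criterion, which chance meets in about 1 of 20 groups (1.2 of 24). Signal 9 of LGXSM-35 was high for *Tgfb1*, at 0.0563 on the log10 scale against -0.0171 for the next assay replicate. The same well was low for *Tgfbr1*, at -0.206 against -0.0718. Residuals recomputed from the signals were -0.0848 and -0.0880 in that well. For *Gdf5* the recomputed residual there was -0.202, against -0.0249 as deposited. The deposited values of these 3 mRNAs in that well thus do not follow from the deposited signals. With recomputed residuals, LGXSM-33 was still above LGXSM-35 for *Tgfbr1*, by 0.22 (log2, limma adjusted P = 0.0235), and LGXSM-6 was, by 0.21 (limma adjusted P = 0.0285). With the well left out these differences were both 0.19 and did not pass (limma adjusted P = 0.0558 and 0.0661). Signal 4 of C57BL6/J was high for *Tgfbr1*, at 0.115 against 0.0190.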

How the results depend on the processing

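The count of targets that differed among strains was 55 and stayed within 48 to 56 when single strains were left out, and 3 to 4 of the 4 mRNAs passed. *Smad4* was the one lost, without LGXSM-5 (limma adjusted P = 0.0979) and without LGXSM-6 (limma adjusted P = 0.0541), and as a ratio to the reference genes. Averaging runs of 3 numbers, added after the data were seen, left 10 targets, 0 of the 4 mRNAs and 0 pairs of the 73 of theirs that could be run, with fewer units per strain and without LG/J and SM/J in the first panel. Of their 36 pairs that had passed, 22 were among these 73. Without normalization 56 pairs of the 4 mRNAs passed, beside 45.9% of all 1876 combinations, their median heritability was 50.7%, beside 49.4% over all 67, and 3 correlations between them passed, beside 44.3% of all 2211 (r of 0.98 for *Tgfb1* with *Tgfbr1*, 0.96 for *Tgfb1* with *Smad4* and 0.99 for *Tgfbr1* with *Smad4*). The median heritability was 26.8% to 37.7% with single strains left out. The healing class contrast gave 0 calls under every alternative run, but signs turned: *Smad4* to -0.030 as ratio, *Tgfb1* to 1.03 and *Tgfbr1* to 0.77 without normalization, *Gdf5* to 0.053 without Signals 7 to 9 of LGXSM-33. With single strains left out, the differences were -0.41 to 0.20 for *Gdf5*, -0.091 to 0.019 for *Tgfbr1*, -0.22 to -0.022 for *Tgfb1* and 0.025 to 0.092 for *Smad4*, and the sign of *Gdf5* and *Tgfbr1* turned without LG/J and without LGXSM-33. The r of *Tgfb1* with *Gdf5* was -0.17 and that of *Tgfb1* with *Tgfbr1* 0.36 as ratio, and that of *Gdf5* with *Smad4* was -0.11 over medians. *Gdf5* is not among the 49 targets with a mean signal of at least 20. The causes were not tested. No paired analysis was possible because replicate numbers of the classes only name strains and pair nothing.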
